A study of Mus musculus with 12 samples.

Results

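Adipocytes of inguinal adipose tissue (IAT), a subcutaneous depot, were compared with adipocytes of epididymal adipose tissue (EAT), a visceral depot that lies beside the epididymis in male mice. The comparison rests on the 6 libraries labelled as adipocytes, 3 of IAT and 3 of EAT, of 12 libraries in the series. The other 6 libraries hold the stromal vascular cells (SVCs) of the same depots, which are the mixed cells of fat other than adipocytes, and serve here as a reference for where a transcript is most abundant. The mice of all groups were male C57BL/6J, 18 weeks old, fed normal chow and untreated, and each depot had been digested with collagenase I to part adipocytes from SVCs. Whether each library holds cells of another mouse, or of several, is not in the labels. All p-values therefore reflect the variation among these libraries, which may be technical. Levels are in FPKM (fragments per kilobase of transcript, scaled to the mapped fragments of the library), means are over 3 libraries ± SD, and differences are of log2(FPKM + 1), IAT minus EAT, ± SE. The log2 scale understates the change of genes with low levels. Tests were two-sided with limma across all 11093 genes that reached 1 FPKM in at least 3 of the 6 adipocyte libraries, and a Benjamini-Hochberg adjusted p under 0.05 was called.

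White adipocytes store triglyceride and release fatty acids when catecholamines act on beta-adrenergic receptors, while insulin, adenosine, ketone bodies and short-chain fatty acids hold that release back. They also secrete hormones, matrix proteins and complement factors that act on other tissues and on neighbouring cells. Visceral and subcutaneous fat are known to differ in developmental origin, in vascular and immune surroundings and in how readily they take on features of brown fat.

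The adipocyte libraries held an estimated 14.1 M to 18.0 M gene fragments, and 10718 to 11069 genes reached 1 FPKM in a library. By the deposited confidence bounds, 2 SD of counting error alone came to a median of 21.8% to 25.9% for genes around 1 FPKM, 7.48% to 8.42% around 10 and 3.66% to 4.10% around 100. EAT adipocyte replicate 1 stood apart: it correlated at r = 0.977 and 0.982 with the other EAT libraries across genes, which are not independent replicates, where the other pairs within a group lay between 0.994 and 0.996. In that library the shortest genes lay a median of 0.40 above the other EAT libraries on the log2 scale, and the longest genes were at -0.26 (the lowest and the highest 20% by length). All values below were therefore computed again without it. Of the 11093 genes, 3376 (30.4% of all) differed between the depots: 917 (8.27%) were higher in IAT and 2459 (22.2%) were lower. The median difference over all tested genes was -0.12, and under median-of-ratios scaling, which moves that median to 0.01, the calls were 1404 higher (12.7%) and 1310 lower (11.8%). The split between higher and lower calls thus changes with the scaling, and counts for gene lists are read against 8.27% and 22.2%. Counts under another setting are read against its own shares. These were 12.7% and 11.8% under median-of-ratios scaling and 18.2% and 39.6% without EAT adipocyte replicate 1. With the trend with gene length removed they were 16.1% and 16.3%. Of the adipocyte marker list, Adipoq, which encodes adiponectin, was at 4150 ± 317 FPKM in EAT and 3461 ± 218 in IAT (limma adjusted p = 0.18), and Pparg, the master regulator of fat cell formation, at 227 ± 8.69 and 208 ± 26.6 (adjusted p = 0.40). Over the 10 measured genes of that list 2 were higher in IAT and 2 lower, and 4 and 2 without EAT adipocyte replicate 1.

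Secreted factors differed between the depots in both directions. Of 1069 genes in the tables that encode secreted factors, 413 were measured, 102 of them higher in IAT (24.7%) and 141 lower (34.1%). Of the measured genes 53 reached 1 FPKM only through the depot in which they were high, so that these had to differ and the shares support nothing by themselves. The same holds for Chrna5, Cxcl14, Fam174b, Gldc, Irf5, Mmp3, Mup10, Prlr, Rspo1, Serpina3b, Slpi, Tfr2 and Vat1l, whose levels below are a description. For 3 abundant circulating proteins of fat cells, the difference did not pass the test with all 6 libraries. Cfd, which encodes adipsin, was at 15269 ± 3463 FPKM in EAT and 19828 ± 1577 in IAT (limma adjusted p = 0.21). Retn, for resistin, was at 4243 ± 1073 and 3043 ± 161 (adjusted p = 0.12), and Hp, for haptoglobin, at 4060 ± 866 and 3281 ± 94.4 (adjusted p = 0.26). For these 3 genes, EAT adipocyte replicate 1 was the highest EAT library. A difference that did not pass does not show equal levels: without that library 3036 of the 7717 genes not called were called. Over 22 measured hormones and adipokines, 1 of them measured through 1 depot only, 3 were higher in IAT and 6 lower. Without that library these counts were 6 and 10, where 18.2% of all genes were called higher and 39.6% lower.

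Several secreted factors that were more abundant in EAT adipocytes than in EAT SVCs were lower in IAT. C6, a component of the membrane attack complex of complement (GRCm38, chr15:4727210-4804045), was at 26.1, 27.4 and 26.8 FPKM in the EAT libraries and at 3.47, 3.46 and 3.47 in the IAT libraries. The groups did not overlap, and the difference was -2.64 ± 0.07 (limma adjusted p = 1.2e-06), a 7.72-fold lower mean in IAT. In SVCs C6 was at 0.953 FPKM in EAT and 4.48 in IAT, so that in IAT the SVCs were higher. Sfrp5, a secreted Wnt antagonist made by adipocytes (chr19:42197971-42202252), was at 100.5, 77.4 and 87.2 FPKM in EAT and 37.6, 36.1 and 34.8 in IAT. Its difference was -1.26 ± 0.11 (limma adjusted p = 0.00021) and -1.16 without EAT adipocyte replicate 1, its highest library. Thbs1, which encodes the matricellular protein thrombospondin 1, an activator of TGF-beta, was at 405, 558 and 494 FPKM in EAT and 148, 150.5 and 167 in IAT. EAT adipocyte replicate 1 was the lowest of the EAT libraries for Thbs1, and every EAT library still lay above every IAT library (-1.63 ± 0.13, limma adjusted p = 0.00018).

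Chrdl1, a secreted antagonist of bone morphogenetic proteins (BMPs), was lower in IAT, at 44.3 ± 8.43 FPKM in EAT and 17.7 ± 3.47 in IAT, and so was Bmper, a BMP-binding protein, at 13.4 ± 0.503 and 5.17 ± 0.323. Bmper was more abundant in SVCs of both depots than in adipocytes. In the whole list of BMP and activin antagonists and latent binding proteins, 3 of 14 measured genes were higher in IAT and 6 lower, with a median difference of -0.12 and 3 genes measured through 1 depot only. Of the Wnt ligands, R-spondins and secreted antagonists, 1 of 8 was higher and 5 were lower (median -0.75), but 3 of the 8 were measured through 1 depot only. Besides Sfrp5, the lower genes included Wnt11, a ligand, at 2.82 ± 0.512 FPKM in EAT and 0.858 ± 0.167 in IAT, and Rspo1, which strengthens Wnt signals, at 2.27 ± 0.538 and 0.165 ± 0.0133. Rspo1 was at 55.9 FPKM in EAT SVCs.

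Some acute phase proteins and protease inhibitors were lower in IAT. Lbp, which encodes the lipopolysaccharide-binding protein, was at 94.8 ± 8.38 FPKM in EAT and 46.6 ± 1.78 in IAT, a 2.03-fold lower mean (limma adjusted p = 0.00027). Orm3, an orosomucoid, was at 19, 11.1 and 15.6 FPKM in EAT and 4.19, 5.03 and 4.13 in IAT (-1.55 ± 0.18, limma adjusted p = 0.00093). Serpina3b, a serine protease inhibitor, was at 3.52 ± 0.711 FPKM in EAT and 0.36 ± 0.041 in IAT. Its relative Serpina3n, the most abundant of this family here, was at 294 ± 20.8 and 299 ± 5.54 FPKM (adjusted p = 0.85). The Orm and Serpina3 genes are families of similar copies, among which reads could have been split in a way not given in the sources used here. Of 29 measured protease inhibitors 3 were higher in IAT and 14 lower (median -0.32), and of 28 complement genes 4 were higher and 14 lower (median -0.38), with 4 and 5 genes measured through 1 depot only. C3, the central component of complement, went the other way, at 43, 71.3 and 69 FPKM in EAT and 146, 172 and 181 in IAT (1.46 ± 0.20, limma adjusted p = 0.0019). C3 was more abundant in SVCs, at 985 FPKM in EAT and 625 in IAT, where the order of the depots was the reverse of that in adipocytes.

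Other secreted factors were higher in IAT. Angptl4, which encodes an inhibitor of lipoprotein lipase, was at 482, 473 and 525 FPKM in EAT and 878, 814 and 838 in IAT. The 3 IAT libraries all lay above the EAT libraries (0.77 ± 0.10, limma adjusted p = 0.0012). Fgf21, a hormone that raises fuel use, was at 1.49 ± 0.285 FPKM in EAT and 3.15 ± 0.178 in IAT (0.74 ± 0.10, limma adjusted p = 0.0019), a low level in both depots. Angpt1, a ligand that stabilises vessels, was at 3.33 ± 0.0975 and 8.96 ± 0.544 FPKM (1.20 ± 0.08, limma adjusted p = 6.0e-05). Adm, which encodes the vasodilator adrenomedullin, was at 21.3 ± 3.87 and 45.1 ± 6.33 FPKM, below or near its SVC levels. Nrg4, a neuregulin secreted by adipocytes, was at 33.9 ± 4.49 and 45.6 ± 1 FPKM (0.43 ± 0.11, limma adjusted p = 0.023), a call lost when EAT replicate 3 or any IAT library was left out (limma adjusted p = 0.0509 to 0.0886). Pon1, a paraoxonase carried on high-density lipoprotein, was at 2.95, 2.66 and 1.84 FPKM in EAT and 12.0, 12.0 and 10.9 in IAT, with 0.0236 and 0.0884 FPKM in the SVCs. All EAT libraries lay below all IAT libraries (1.87 ± 0.13, limma adjusted p = 9.5e-05). Of the plasma carriers and acute phase proteins, 19 of 35 were higher in IAT and 4 lower, but 16 of the 35 were measured through 1 depot only. They include the major urinary proteins (Mup10 was at 0.111 ± 0.0643 FPKM in EAT and 37 ± 2.85 in IAT), near-identical copies whose single values are uncertain.

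**Figure D1:**
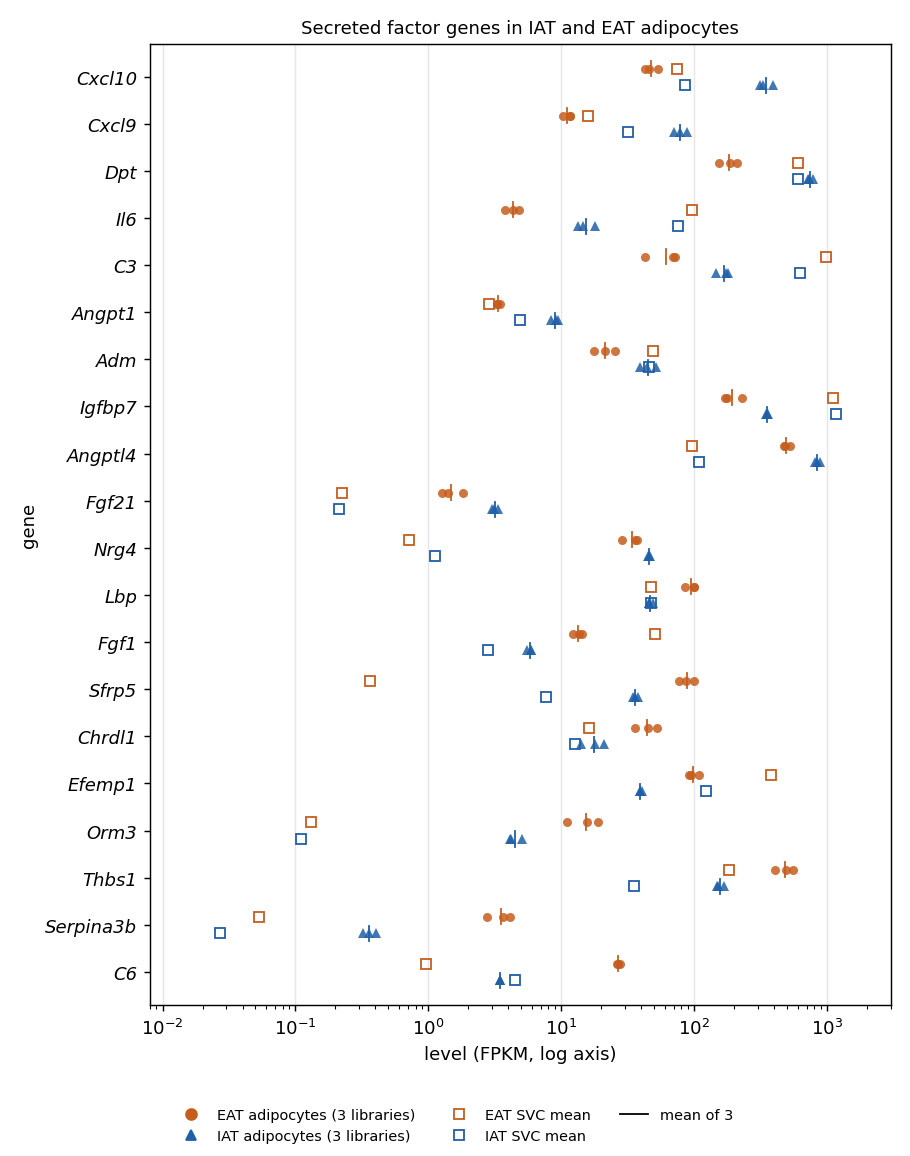
Levels of 20 secreted factor genes in FPKM on a log axis, by gene, in the 3 EAT adipocyte libraries (circles) and the 3 IAT adipocyte libraries (triangles), with group means as vertical lines and SVC means as open squares. Genes are ordered by the difference between depots: C6 and Serpina3b at the bottom lie far lower in IAT, and Cxcl9 and Cxcl10 at the top lie far higher, with no overlap of libraries.

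Matrix genes differed in both directions, and most were more abundant in SVCs. Dpt, which encodes the matrix protein dermatopontin, was at 209, 155 and 186 FPKM in EAT adipocytes and 783, 721 and 729 in IAT adipocytes, against 608 and 599 FPKM in the SVCs of EAT and IAT. Its level in adipocytes was above that in SVCs in IAT and below it in EAT (depot difference in adipocytes 2.03 ± 0.13, limma adjusted p = 5.6e-05). Igfbp7, which binds insulin-like growth factors, was at 192 ± 31.1 FPKM in EAT and 352 ± 5.69 in IAT, but at 1114 and 1175 FPKM in SVCs. Efemp1, a fibulin, was lower in IAT (98.7 ± 9.28 against 39.4 ± 0.673 FPKM), as were Gas6, the ligand of the TAM receptor kinases (76.4 ± 6.81 against 27 ± 1.31), and Adamts5, a protease of aggrecan (76.7 ± 2.81 against 33.3 ± 0.563). Of these 3 genes only Adamts5 was higher in adipocytes than in the SVCs of its depot. Of 61 measured non-collagen matrix proteins 17 were higher and 16 lower in IAT (median 0.03; 20 and 25 without EAT adipocyte replicate 1), and of 15 collagens 4 were higher and 5 lower (median -0.24). The count of collagens moved with the scaling: 0 were lower under median-of-ratios or quantile scaling and 1 after rescaling each library to a common sum (TPM), and 9 were lower without EAT adipocyte replicate 1, with 4 higher in each. Without that library 18.2% of all genes were called higher and 39.6% lower.

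A further group of secreted factors was lower in IAT and came mainly from genes that were far more abundant in SVCs. Ccl3, a chemokine of macrophages, was at 40.2, 18.0 and 28.1 FPKM in EAT adipocytes, 1.64, 1.58 and 1.10 in IAT adipocytes, and 161 and 29.6 in the SVCs of EAT and IAT. The cytokine Tnf was at 21.4 ± 4.54 FPKM in EAT and 4.16 ± 1.3 in IAT, and Il1b at 6.39 ± 1.78 and 1.46 ± 0.32. Lyz2, the lysozyme of myeloid cells, was at 270 ± 33.9 and 43.4 ± 10.2 FPKM. Slpi, a leukocyte protease inhibitor, was at 27.2, 15.2 and 17.3 FPKM in EAT and 0.288, 0.369 and 0.204 in IAT, and at 308 FPKM in EAT SVCs. Among 12 macrophage markers, 2 of them measured through 1 depot only, 11 were lower in IAT and 0 higher. Their summed level was 507 to 648 FPKM in the EAT adipocyte libraries and 96.1 to 139 in the IAT adipocyte libraries, which is 12.3% and 4.38% of the level in the SVCs of the same depot. The 5 measured mesothelial markers all reached 1 FPKM only in EAT and so had to be lower in IAT. The 11 mesothelial markers with deposited values, tested or not, summed to 22.1 to 25.0 FPKM in EAT and 0.576 to 0.731 in IAT. The part of these cell types in each gene's difference was not tested. In such bulk libraries fewer cells of a type and less RNA per cell cannot be told apart.

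The reverse held for a smaller set. Mmp3, a matrix protease, was at 0.143, 0.047 and 0.0522 FPKM in EAT and 7.90, 4.85 and 5.95 in IAT, and Cxcl14, a chemokine, at 0.394 ± 0.0611 and 8.32 ± 1.8. In the SVCs of EAT and IAT, Mmp3 was at 2.11 and 174 FPKM and Cxcl14 at 12 and 176. Col1a1, the main fibrillar collagen chain, was at 17.9 ± 3.77 FPKM in EAT adipocytes and 42.5 ± 3.64 in IAT adipocytes, against 250 and 670 in SVCs. Of 9 measured fibroblast and progenitor markers 5 were higher in IAT and 1 lower. The 11 such markers with deposited values, tested or not, summed to 266 to 298 FPKM in EAT and 336 to 401 in IAT. The part of these cells was not tested either. In both depots, 27.6% or 27.7% of the genes that differed were at least 2-fold more abundant in the SVCs of the depot in which they were high: 254 of the 917 higher in IAT and 679 of the 2459 lower in IAT. Of the 7717 genes that did not pass, 1468 (19%) were. Genes at least 2-fold more abundant in adipocytes than in those SVCs made up 344 of the 917 higher (37.5%), 510 of the 2459 lower (20.7%) and 1508 of the others (19.5%).

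A pair of chemokines that attract T cells, both induced by interferon gamma, were higher in IAT adipocytes, and so were most measured genes of a family of interferon-inducible GTPases. Cxcl9 was at 10.3, 11.5 and 11.6 FPKM in EAT and 87.9, 70.2 and 78.4 in IAT (2.71 ± 0.10, limma adjusted p = 5.4e-06). Cxcl10 was at 53.7, 42.4 and 45.5 FPKM in EAT and 392, 310.5 and 331 in IAT (2.84 ± 0.13, limma adjusted p = 1.2e-05). The libraries of both genes did not overlap, and in IAT both were more abundant in adipocytes than in SVCs, where Cxcl9 was at 32 FPKM and Cxcl10 at 84.8. Of the interferon-inducible GTPases, which act against microbes inside cells, 15 of 16 measured were higher in IAT and 0 lower, with a median difference of 1.47. This list and the others in this part were chosen after values were seen, so that their counts are a description only.

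Among the GTPases, Iigp1 was at 9.54, 8.75 and 8.91 FPKM in EAT and 102, 90.9 and 101 in IAT, Igtp at 7.77, 6.82 and 7.27 against 58.8, 50.6 and 52.8, and Irgm1 at 6.50, 6.36 and 5.37 against 54.2, 42.9 and 47.6. The guanylate-binding proteins Gbp2 (24.5 ± 2.04 against 90.5 ± 17.4 FPKM) and Gbp6 (6.56 ± 0.268 against 35.7 ± 3.88) followed. Gbp9 was the member that did not pass (2.17 ± 0.726 against 3.03 ± 0.646 FPKM, limma adjusted p = 0.21), and 7 of the 16, among them Iigp1, Irgm1 and Gbp2, were more abundant in IAT adipocytes than in IAT SVCs. All 15 were also called without EAT adipocyte replicate 1. The order of the depots was not particular to adipocytes: each of the 16 had a higher mean in IAT SVCs than in EAT SVCs. Igtp was at 54.3 FPKM in IAT SVCs and 23.7 in EAT SVCs, and Gbp2 at 49 and 44.1. These genes lie in clusters of similar copies, among which reads could be split, above all Tgtp1 and Tgtp2. Of 12 measured Ifit, Oas and related antiviral genes 8 were higher and 0 lower (3 measured through 1 depot only), with smaller differences (Ifit3, 12 ± 0.642 against 19.7 ± 2.91 FPKM). Among 10 measured antigen processing genes 5 were higher and 0 lower (median 0.55). Of 14 interferon regulatory factors and STATs 8 were higher and 1 lower. Irf1, the transcription factor induced by interferon gamma, was at 113, 108 and 104 FPKM in EAT and 443, 428 and 436 in IAT (2.00 ± 0.08, limma adjusted p = 6.7e-06). Its means in SVCs were 188 FPKM in EAT and 220 in IAT. Irf5 was the lower gene (2.91 ± 0.313 against 0.713 ± 0.186 FPKM).

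Promoter sequence from RefSeq (GRCm38.p6) is shown for 6 genes of this set, picked because 1 of 2 motifs lay in the last 100 bases before the start site. Capitals mark GAAA, any 2 bases and GAAA, a core shared by binding sites of interferon regulatory factors, and TTCNNNGAA, the palindrome of STAT sites. Each was searched on both strands (the first reads TTTC, any 2 bases and TTTC on the other strand), and matches may overlap. Over all 32851 promoter windows, 2.98% held the first motif and 7.02% the second in the 250 bases before the start site, and 3.49% held either in the last 100. Of the 16 GTPases 10 had an entry, too few to give a share for the family, and 9 of these 10 held a match in the last 100 bases at 1 start site or more, Ifi47 being the other. Some of the 10 are similar copies of each other. The windows of Cxcl9 and of the second start sites of Gbp3 and Irf1 held none, and that of Cxcl10 held the first motif 213 bases before the start. A match is a description of these letters, not a site.
Igtp, chr11:58199456-58199555, + strand: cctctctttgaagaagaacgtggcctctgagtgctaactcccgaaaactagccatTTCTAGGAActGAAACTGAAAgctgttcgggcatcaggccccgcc
Irgm2, chr11:58214877-58214976, + strand: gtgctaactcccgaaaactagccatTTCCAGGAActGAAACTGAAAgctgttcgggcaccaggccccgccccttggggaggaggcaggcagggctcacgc
Irgm1, chr11:48871421-48871520, - strand: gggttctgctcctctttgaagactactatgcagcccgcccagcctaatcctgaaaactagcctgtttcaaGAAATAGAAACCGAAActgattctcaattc
Gbp2, chr3:142620563-142620662, + strand: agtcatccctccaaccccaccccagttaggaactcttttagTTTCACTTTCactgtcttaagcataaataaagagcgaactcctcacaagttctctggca
Irf1, chr11:53769914-53770013, + strand: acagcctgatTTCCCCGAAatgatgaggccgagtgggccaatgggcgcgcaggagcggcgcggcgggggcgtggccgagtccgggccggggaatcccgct
Socs1, chr16:10785537-10785636, - strand: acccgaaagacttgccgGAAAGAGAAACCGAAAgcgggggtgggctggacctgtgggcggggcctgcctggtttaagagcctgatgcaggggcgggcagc
Igtp and Irgm2 carried both motifs, 2 bases apart in each, and Irgm1 and Socs1 carried overlapping matches of the first motif.

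Several feedback inhibitors of cytokine signalling were higher in IAT beside these genes: of 8 measured SOCS genes 4 were higher and 1 lower. Socs1, which restrains interferon signalling, was at 6.47, 5.43 and 4.70 FPKM in EAT and 22.8, 22.1 and 21.9 in IAT (1.84 ± 0.11, limma adjusted p = 4.3e-05). Socs3, which restrains signals of the interleukin 6 family and of leptin, was at 44.8, 70.6 and 61.1 FPKM in EAT and 338, 375 and 367 in IAT (2.62 ± 0.16, limma adjusted p = 5.6e-05). In IAT it was more abundant in adipocytes than in SVCs (301 FPKM). The SVC means of Socs3 (213 FPKM in EAT) and Socs1 (20 in EAT and 36.4 in IAT) were also higher in IAT, while that of Cish was lower (15.1 and 10.3). Cish, of the same family, was at 4.75 ± 1.96 FPKM in EAT and 23.6 ± 3.25 in IAT, and Socs5 was at 3.76 ± 0.418 against 2.68 ± 0.0315. The call of Socs5 (limma adjusted p = 0.0186) was lost when EAT replicate 2 or any IAT library was left out (0.0522 to 0.0718) and under median-of-ratios scaling (0.0747). Among cytokines, Il6 was at 4.30 ± 0.537 FPKM in EAT and 15.3 ± 2.4 in IAT, with 95.8 and 75 FPKM in SVCs.

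Other measured facts stood beside this set. Of 17 immediate-early genes, which respond to stress and handling as well as to hormones, 8 were higher in IAT and 1 lower: Jun was at 104 ± 22.5 FPKM in EAT and 286 ± 13.2 in IAT and Fosb at 99.7 ± 34.4 and 371 ± 24.9, while Egr1 was at 761 ± 28.1 and 757 ± 38 (limma adjusted p = 0.97). The heat shock gene Hspa1a was at 36.7 ± 5.81 and 105 ± 22.7 FPKM, with a near-identical copy, Hspa1b, that makes its single value uncertain. The 12 lymphocyte markers with deposited values, tested or not, summed to 4.89 to 5.61 FPKM in EAT and 8.97 to 10 in IAT. These sums are 4.77% and 2.04% of the SVC level. Of the 4 that were measured, 3 were higher in IAT and 1 lower, and 3 were measured through 1 depot only. The part of tissue handling and of lymphocytes in the interferon-inducible genes was not tested.

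**Figure D2:**
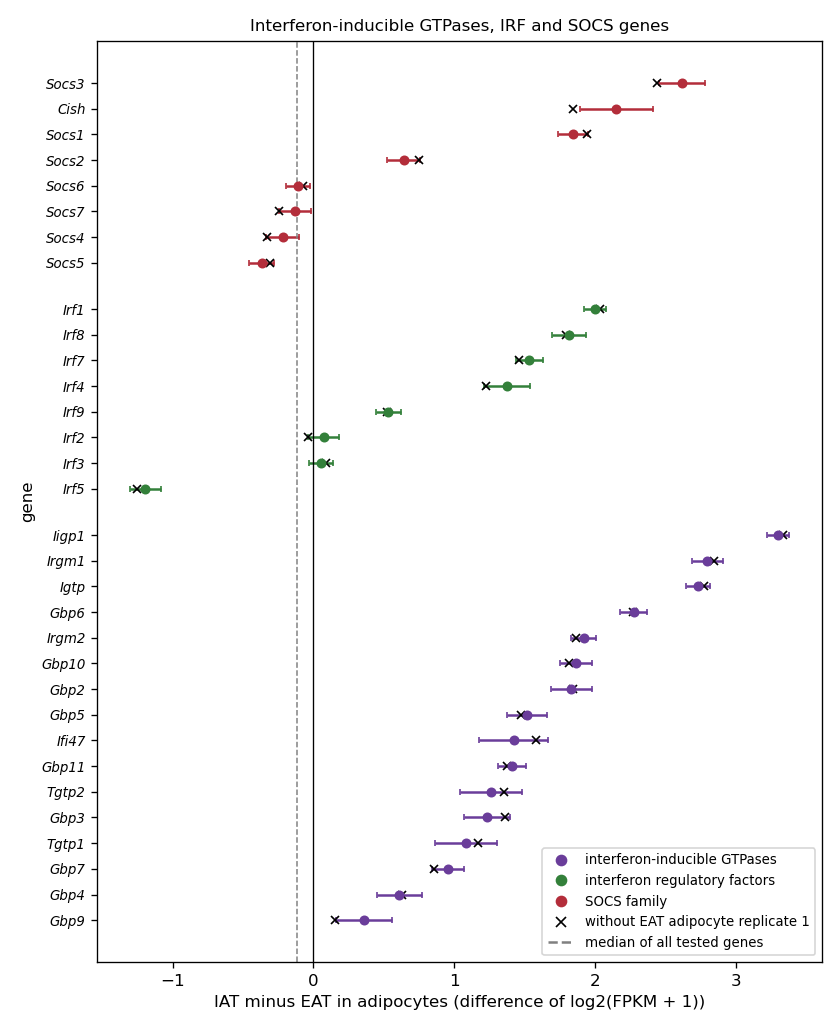
Difference between IAT and EAT adipocytes in log2(FPKM + 1) with its SE, by gene, for the measured interferon-inducible GTPases, interferon regulatory factors and SOCS genes, which were chosen after values were seen, with the value without EAT adipocyte replicate 1 as a cross and the median of all tested genes, -0.12, as a dashed line. All 16 GTPases lie above 0 and 15 of them passed the test, whereas Irf5 lies at -1.19.

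Receptors for hormones and metabolites differed in both directions. Of 288 measured receptor genes 41 were higher in IAT (14.2%) and 87 lower (30.2%), with 17 measured through 1 depot only. The largest difference among receptors that were rare in SVCs was that of Oxtr, which encodes the oxytocin receptor (chr6:112473684-112489808). It was at 19.5, 23.8 and 23.3 FPKM in EAT and at 2.26, 2.47 and 2.48 in IAT, with 0.239 and 0.298 in the SVCs. All EAT libraries lay far above all IAT libraries (-2.77 ± 0.10, limma adjusted p = 3.9e-06), a 9.25-fold lower mean in IAT. Prlr, the prolactin receptor, was also lower in IAT but far less abundant, at 2.25 ± 0.219 and 0.653 ± 0.125 FPKM , and Amhr2, the receptor of anti-Müllerian hormone, was at 3.6 ± 0.511 and 1.3 ± 0.119. Of 19 measured peptide hormone receptors of the G protein-coupled class 3 were higher and 6 lower (median -0.14).

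Receptors that set the rate of lipolysis were among those that differed. Npr3, the clearance receptor that removes natriuretic peptides (chr15:11839896-11907371), was at 192, 197 and 194 FPKM in EAT and 87.3, 81.7 and 89.1 in IAT (-1.17 ± 0.08, limma adjusted p = 6.7e-05). Its partner Npr1, which signals through cyclic GMP, was at 4.49 ± 0.81 and 6.51 ± 0.763 FPKM (limma adjusted p = 0.038, lost at 0.0523 to 0.135 when EAT replicate 3 or any IAT library was left out), and at 47.8 and 45.9 in SVCs. Adrb3, the beta3-adrenergic receptor of fat cells, was at 447, 464 and 453 FPKM in EAT and 197, 289 and 249 in IAT (-0.91 ± 0.14, limma adjusted p = 0.0038). The groups did not overlap, and the IAT libraries varied more.

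Receptors for metabolites, most of which act through an inhibitory G protein in fat cells, formed a mixed list: 5 of 15 were higher and 5 lower (median 0.12). Sucnr1, the succinate receptor, was at 77.3, 64.9 and 66.4 FPKM in EAT and 25.8, 28.3 and 26.9 in IAT (-1.33 ± 0.09, limma adjusted p = 9.1e-05). Ffar2, which senses short-chain fatty acids, was at 25.5, 19.5 and 21.8 FPKM in EAT and 43.9, 47.6 and 44.5 in IAT (a 2.03-fold higher mean, limma adjusted p = 0.00059). In SVCs Sucnr1 was at 0.75 and 0.725 FPKM and Ffar2 at 1.26 and 1.14. Their order between adipocytes of the depots was opposite. Ffar4, which senses long-chain fatty acids, was lower in IAT (28.3 ± 2.41 against 20.2 ± 0.976 FPKM), as was Ptger3, a prostaglandin E receptor (33.2 ± 5.14 against 20.5 ± 0.594). Hcar2, the receptor of ketone bodies and niacin, was higher in IAT, at 26.9, 36.4 and 32.6 FPKM against 133, 153 and 143. Adora1, the adenosine receptor that restrains lipolysis, was at 15.5 ± 2.28 and 23.1 ± 1.33 FPKM and Cnr1, the cannabinoid receptor, at 2.43 ± 0.244 and 3.49 ± 0.17, and the calls of both were lost when IAT replicate 2 or 3 was left out (for Cnr1 also EAT replicate 3), with limma adjusted p = 0.0533 to 0.0597, and when rescaled to TPM (0.0649 and 0.0674).

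**Figure D3:**
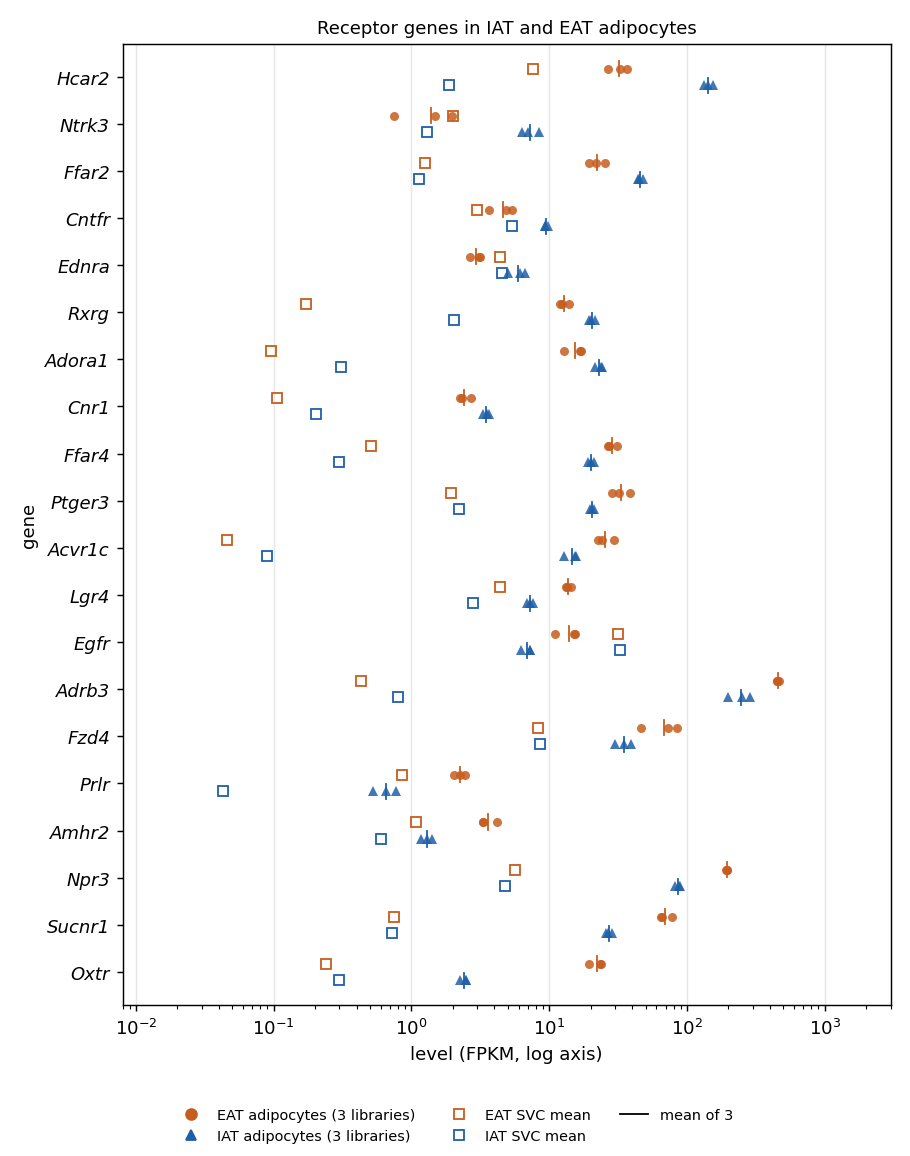
Levels of 20 receptor genes in FPKM on a log axis, by gene, in the 3 EAT adipocyte libraries (circles) and the 3 IAT adipocyte libraries (triangles), with group means as vertical lines and SVC means as open squares. Oxtr, Sucnr1 and Npr3 lie lower in IAT and Hcar2, Ntrk3 and Ffar2 higher, and most of the genes lie well above their SVC means.

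Growth factor receptors differed in both directions. Of 16 measured receptors and co-receptors of the TGF-beta family 1 was higher and 8 were lower (median -0.32), which became 2 and 5 under median-of-ratios scaling. Acvr1c, which encodes ALK7, an activin receptor of adipocytes, was at 22.5, 29.8 and 24.2 FPKM in EAT and 12.8, 15.6 and 15.4 in IAT (-0.76 ± 0.13, limma adjusted p = 0.0046). Its SVC levels were 0.0458 and 0.0888 FPKM. Lgr4, the R-spondin receptor, was at 13.7 ± 0.514 and 7.21 ± 0.362 FPKM, Gpc4, a glypican that binds growth factors, at 33.6 ± 0.269 and 20.1 ± 0.721, and Egfr, the epidermal growth factor receptor, at 13.8 ± 2.38 and 6.9 ± 0.529, with 31.4 and 32.9 in SVCs. The Wnt receptor Fzd4 was at 46.1, 84.8 and 73.1 FPKM in EAT, with replicate 1 far below the others, and at 30.2, 34.7 and 39 in IAT. Its call (-0.92 ± 0.22, limma adjusted p = 0.020) was lost when EAT replicate 3, IAT replicate 1 or IAT replicate 2 was left out (limma adjusted p = 0.0678 to 0.083). Among receptor tyrosine kinases and their partners, 4 of 38 were higher and 12 lower (median -0.15), near the background, and with the length trend removed the order turned to 9 and 8 (6 and 9 under median-of-ratios scaling). Ntrk3, the receptor of neurotrophin 3, was the leading higher gene, at 0.747, 1.97 and 1.48 FPKM in EAT and 7, 6.39 and 8.37 in IAT (1.81 ± 0.20, limma adjusted p = 0.00064). In SVCs it was at 2 and 1.29 FPKM.

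Other receptors higher in IAT were Cntfr, for ciliary neurotrophic factor (4.62 ± 0.893 against 9.47 ± 0.306 FPKM), Osmr, for oncostatin M (7.91 ± 0.736 against 11.9 ± 0.416), and Ednra, the endothelin A receptor (2.96 ± 0.269 against 5.96 ± 0.862). Ednrb, the endothelin B receptor, was lower (9.63 ± 0.699 against 4.52 ± 1.03) but was at 53.2 and 35.1 FPKM in SVCs. Of 29 measured nuclear receptors 4 were higher and 5 lower (median -0.08), which turned to 7 and 3 under median-of-ratios scaling, so that no direction is given. Rxrg, a retinoid X receptor, was at 12.8 ± 0.935 and 20.3 ± 0.959 FPKM. The iron uptake receptors split, with Tfrc, the transferrin receptor, at 13 ± 0.217 and 7.18 ± 0.121 FPKM (44.4 and 36.6 in SVCs) and its relative Tfr2 at 0.907 ± 0.0192 and 2.85 ± 0.41. Csf1r and Mrc1, receptors of macrophages, were lower in IAT (22.2 ± 4.58 against 3.82 ± 0.419 and 13.1 ± 0.993 against 2.12 ± 0.0828 FPKM), beside the fall in the summed macrophage markers given above.

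Transporters and channels were the class least often higher in IAT. Of 303 measured genes 29 were higher (9.57%) and 87 lower (28.7%), beside 8.27% and 22.2% of all genes, so that both shares lay near the background. Metal and phosphate carriers had 0 of 25 higher and 12 lower (median -0.24), and ATP-driven ion and lipid pumps 0 of 23 higher and 9 lower (median -0.25). Under median-of-ratios scaling these counts were 2 and 5, and 1 and 6. Slc31a1, which imports copper, was at 14.6, 14.2 and 14.4 FPKM in EAT and 8.97, 9.28 and 9.77 in IAT (-0.58 ± 0.07, limma adjusted p = 0.0010). Slc20a1, a phosphate importer, was at 24.5 ± 0.909 and 14.7 ± 0.856 FPKM, with higher levels in SVCs, and Slc11a1, an iron carrier of macrophages, at 6.47 ± 0.273 and 1.75 ± 0.298. The calcium pump Atp2a3 was at 9.83, 13.7 and 14 FPKM in EAT and 3.57, 3.29 and 3.60 in IAT (-1.57 ± 0.13, limma adjusted p = 0.00021).

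Carriers of fuels and amino acids held genes of either direction. Slc36a2, a proton-coupled amino acid carrier, was at 51.5, 56.2 and 61.4 FPKM in EAT and 107, 113 and 115 in IAT (0.97 ± 0.09, limma adjusted p = 0.00030). Slc43a1, which carries branched-chain amino acids, was at 14.3 ± 0.872 and 24.4 ± 3.59 FPKM. In the whole amino acid list 3 of 28 were higher and 13 lower, and 5 of the 28 were measured through 1 depot only. The lower calls fell to 7 under median-of-ratios scaling, with 5 higher, and to 6 in TPM, with 3 higher. Slc6a13, a carrier of GABA and taurine, was among the lower genes (52.5 ± 10.7 against 28.7 ± 1.12), while Slc1a5, the abundant glutamine carrier, was at 893 ± 84 and 869 ± 29.5 FPKM (limma adjusted p = 0.84). Slc16a12, which carries creatine and related solutes, was at 13.4, 12.4 and 12.4 FPKM in EAT and 4.57, 5.35 and 5.34 in IAT (-1.18 ± 0.08, limma adjusted p = 0.00010). Slc2a13, a proton-coupled inositol carrier, was higher in IAT (3.38 ± 0.0494 against 6.03 ± 0.491 FPKM), and Slc2a4, the insulin-regulated glucose carrier GLUT4, was at 70.3 ± 2.51 and 87.6 ± 7.21 (limma adjusted p = 0.035, lost at 0.0691 to 0.138 when EAT replicate 2 or 3 or IAT replicate 2 or 3 was left out). Abca1, which exports cholesterol, was lower in IAT (31.1 ± 4.85 against 15.7 ± 1.85 FPKM). Fabp5, a fatty acid binding protein, was higher (136 ± 6.8 against 245 ± 21).

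Several abundant carriers of the inner mitochondrial membrane were higher in IAT. Slc25a1, the citrate carrier that supplies carbon for fatty acid synthesis, was at 248, 204 and 238 FPKM in EAT and 418, 399 and 403 in IAT (0.82 ± 0.10, limma adjusted p = 0.0011). Slc25a10, the dicarboxylate carrier, was at 79.2 ± 8.47 and 132 ± 0.599 FPKM and Slc25a35 at 19.9 ± 3.18 and 35 ± 1.29. Slc25a24, a calcium-regulated ATP-Mg/phosphate carrier, was lower, at 6.48, 6.21 and 6.98 FPKM against 1.81, 1.67 and 1.65 (-1.48 ± 0.08, limma adjusted p = 2.5e-05), as was Ucp2, at 56.5 ± 5.96 against 23.3 ± 2.53, but both were more abundant in SVCs. Ucp3, a relative of Ucp2, was at 9.8 ± 1.78 and 9.18 ± 0.949 FPKM (limma adjusted p = 0.71). Over 46 measured mitochondrial carriers 7 were higher and 10 lower, which turned to 8 and 5 under median-of-ratios scaling, so that no direction is given for the list.

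Ion channels with a depot difference were mostly of low abundance. Kcnj15, an inward rectifier potassium channel, was at 11.4, 13.3 and 13.4 FPKM in EAT and 3.90, 2.97 and 3.61 in IAT (-1.61 ± 0.11, limma adjusted p = 7.8e-05), with 0.234 and 0.244 in SVCs. Kcnk2, the 2-pore potassium channel TREK-1, was at 1.57, 1.26 and 1.60 FPKM in EAT and 6.51, 6.24 and 6.70 in IAT (1.60 ± 0.08, limma adjusted p = 2.7e-05), and its relative Kcnk3, or TASK-1, at 9.33 ± 1.95 and 18 ± 1.39. Chrna5, a subunit of nicotinic acetylcholine receptors, was at 0.245, 0.0744 and 0.182 FPKM in EAT and 3.61, 3.32 and 3.27 in IAT, with as few as 5 estimated fragments in a library. Trpv1, the capsaicin receptor, was higher in IAT (1.28 ± 0.205 against 4.25 ± 0.378 FPKM) and its relative Trpv2 lower (8.31 ± 0.586 against 1.65 ± 0.171). Over 56 measured ion channels 9 were higher and 12 lower, which turned to 11 and 5 under median-of-ratios scaling. Aqp7, the glycerol channel of adipocytes, was at 44.9 ± 1.92 and 48.9 ± 3.88 FPKM (limma adjusted p = 0.34).

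**Figure D4:**
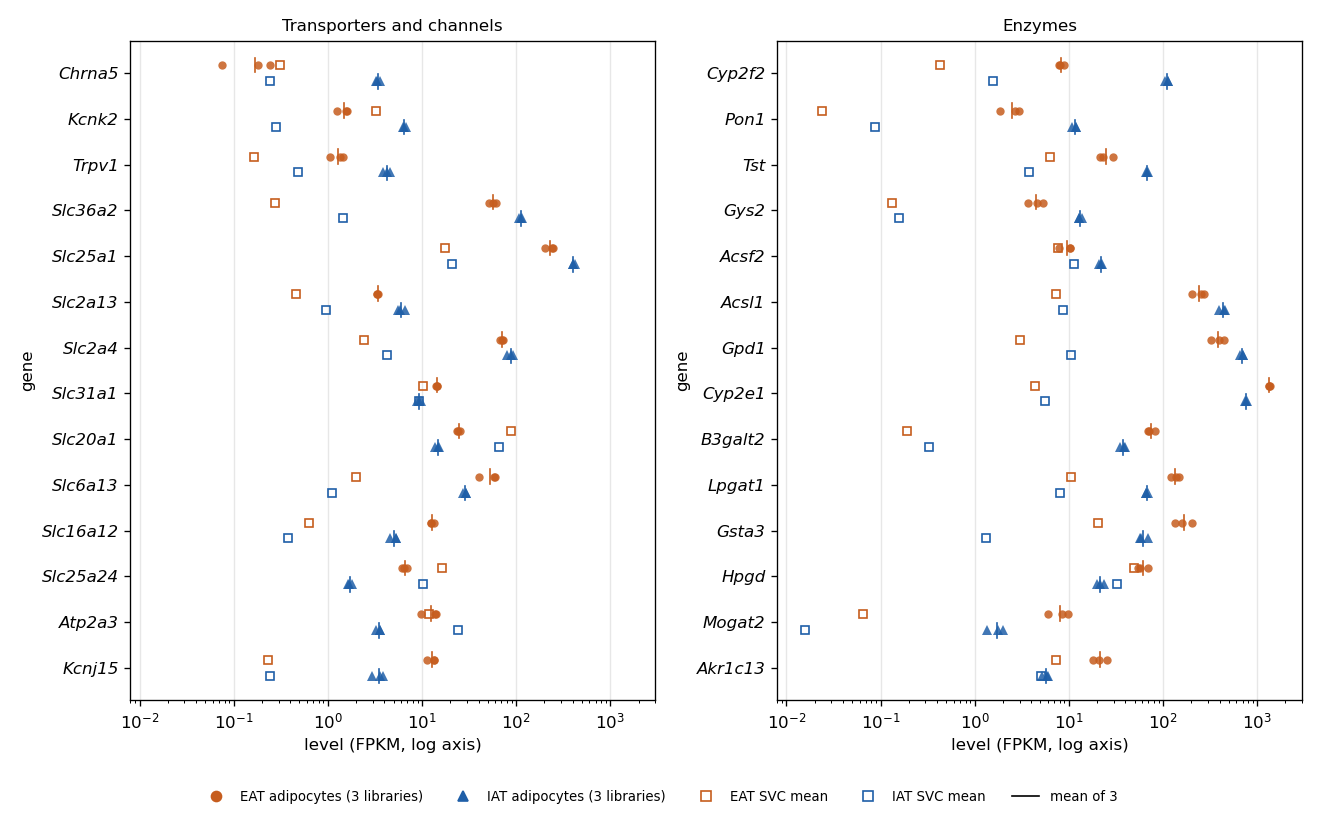
Levels of 14 transporter and channel genes (left) and 14 enzyme genes (right) in FPKM on a log axis, by gene, in the 3 EAT adipocyte libraries (circles) and the 3 IAT adipocyte libraries (triangles), with group means as vertical lines and SVC means as open squares. Kcnj15 and Mogat2 lie lower in IAT, and Chrna5 and Cyp2f2 lie higher.

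Enzymes were the largest class, with 948 measured genes, 148 higher in IAT (15.6%) and 213 lower (22.5%). The largest difference toward IAT was that of Cyp2f2, a cytochrome P450 that oxidises small aromatic compounds (chr7:27119955-27133660). It was at 7.77, 8.13 and 8.90 FPKM in EAT and at 105, 114 and 114 in IAT, a 13.4-fold higher mean, with 0.425 and 1.55 FPKM in SVCs (3.60 ± 0.08, limma adjusted p = 1.2e-06). Cyp2e1, which oxidises ethanol and acetone and is the most abundant P450 here, went the other way, at 1376, 1334 and 1327 FPKM in EAT and 749, 781 and 757 in IAT (-0.82 ± 0.09, limma adjusted p = 0.00088). In neither gene did the groups overlap. Cyp27a1, which hydroxylates sterols, was lower in IAT (38.2 ± 1.91 against 14.1 ± 1.27 FPKM), with higher levels in SVCs. Of 18 measured P450 genes 2 were higher and 6 lower (median -0.10), and 2 and 4 under median-of-ratios scaling. Gsta3, a glutathione transferase, was lower in IAT at 205, 135 and 158 against 69.3, 57.1 and 58.2 FPKM, and Akr1c13, an aldo-keto reductase with similar copies, at 21.5 ± 3.81 against 5.71 ± 0.41.

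Enzymes that handle glucose and the glycerol backbone of triglyceride differed in either direction. Gys2, the glycogen synthase best known from liver, was at 5.28, 3.67 and 4.54 FPKM in EAT and 13.7, 12.9 and 12.8 in IAT (1.37 ± 0.12, limma adjusted p = 0.00021). Hk2, the insulin-regulated hexokinase, was at 34.1 ± 3.7 and 54.3 ± 2.5 FPKM. Gpd1, which makes glycerol 3-phosphate, was at 327, 391 and 446 FPKM in EAT and 662, 707 and 701 in IAT (0.84 ± 0.13, limma adjusted p = 0.0034). Pck1, which starts glyceroneogenesis, was at 863 ± 99.1 and 1177 ± 52.3 FPKM (limma adjusted p = 0.029), a call lost when EAT replicate 3 or any IAT library was left out (limma adjusted p = 0.0784 to 0.12). Mogat2, a monoacylglycerol acyltransferase known from the intestine, was lower in IAT, at 9.81, 6.03 and 8.47 FPKM against 2.02, 1.35 and 1.77 (-1.73 ± 0.17, limma adjusted p = 0.00046). Agpat9, which acylates glycerol 3-phosphate, was lower too (56.6 ± 2.95 against 38 ± 3.17), and so was Lpgat1, a lysophospholipid acyltransferase (136 ± 12.8 against 67.5 ± 2.18). Over the 24 measured genes of glycerolipid synthesis 6 were higher and 7 lower (median -0.21), which turned to 8 and 4 under median-of-ratios scaling and was 1 and 6 in TPM. Over 83 phospholipid and sphingolipid enzymes 4 were higher and 26 lower (median -0.16), and 7 and 18 under median-of-ratios scaling.

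Enzymes of fatty acid use leaned to IAT. Of 50 measured genes of fatty acid oxidation and ketone metabolism 17 were higher and 6 lower (median 0.17), and 28 and 9 without EAT adipocyte replicate 1. Without that library 18.2% of all genes were called higher and 39.6% lower. Acsf2, which activates medium-chain fatty acids, was at 7.90, 10.3 and 10.3 FPKM in EAT and 20.8, 22.7 and 22.2 in IAT (1.13 ± 0.11, limma adjusted p = 0.00042). Acsl1, which activates long-chain fatty acids, was at 205, 269.9 and 253 FPKM in EAT and 397, 449 and 457 in IAT (0.84 ± 0.13, limma adjusted p = 0.0031), a call lost when the trend with gene length was removed. Of 82 nuclear-encoded respiratory chain subunits 19 were higher and 0 lower (median 0.37), but 76 were higher and 0 lower without EAT adipocyte replicate 1. With the length trend removed 56 were higher and 1 lower (median 0.31), where 16.1% of all genes were called higher and 16.3% lower. Cox6c was at 559, 362 and 376 FPKM in EAT and 666, 665 and 588 in IAT, and Ndufa1 at 181, 109.7 and 120.3 against 214, 204 and 187. The groups did not overlap in either gene, but leaving out any library other than EAT replicate 1 ended the call of both (limma adjusted p = 0.0908 to 0.157). The abundant antioxidant enzyme Sod1 showed the same order, at 1171, 762 and 796 against 1410, 1347 and 1274 FPKM (limma adjusted p = 0.0437), a call likewise lost without any other library (0.107 to 0.148). Nnt, the mitochondrial transhydrogenase, in which this strain carries a deletion, was lower in IAT (7.07 ± 0.602 against 2.81 ± 0.168 FPKM).

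Enzymes of signalling lipids, creatine and surface glycans were more often lower than higher in IAT, as were all genes (22.2% lower and 8.27% higher). Of 17 measured eicosanoid enzymes 2 were higher and 10 lower (median -0.48), with 3 measured through 1 depot only. Hpgd, which inactivates prostaglandins, was at 69.9, 57.6 and 55.0 FPKM in EAT and 23.6, 19.8 and 21.2 in IAT (-1.45 ± 0.11, limma adjusted p = 0.00016), with 48.7 and 32.5 in SVCs. Alox5ap, which leukocytes need for leukotrienes, was at 16.4 ± 4.92 and 3.2 ± 0.688 FPKM but at 156 and 82.3 in SVCs, and Ptgis, prostacyclin synthase, at 3.79 ± 0.696 and 0.927 ± 0.128 with 95.5 and 14.7 in SVCs. Tst, which encodes the cyanide-detoxifying enzyme rhodanese, was higher in IAT, at 29.6, 21.2 and 23.2 FPKM against 69.3, 67.4 and 65.9 (1.43 ± 0.12, limma adjusted p = 0.00023). Gldc, of the glycine cleavage system, was at 0.169 ± 0.0463 and 2.36 ± 0.13 FPKM. Of 5 measured creatine genes 1 was higher and 3 were lower. Gamt, which makes creatine, was at 65 ± 12.4 and 38.5 ± 2.96 FPKM, Ckb, creatine kinase B, at 50.6 ± 8.73 and 31.2 ± 1.01, and Slc6a8, the creatine importer, at 7.22 ± 0.187 and 3.98 ± 0.211, both with higher levels in SVCs. Of 80 glycan enzymes 6 were higher and 34 lower (median -0.26), and 9 and 17 under median-of-ratios scaling. B3galt2, a galactosyltransferase, was at 69.0, 82.4 and 71.9 FPKM in EAT and 35.2, 39.8 and 39 in IAT, with 0.191 and 0.328 in SVCs.

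Signalling genes inside the cell also differed. Grb14, an adaptor that inhibits the insulin receptor, was at 37.3, 28.3 and 33.6 FPKM in EAT and 96.6, 73.4 and 81.1 in IAT (1.31 ± 0.14, limma adjusted p = 0.00055), with 0.812 and 4.24 in SVCs. Irs3, an insulin receptor substrate of rodent fat cells, was lower in IAT (19.5 ± 2.75 against 11.4 ± 0.961 FPKM), as was Foxo1, a transcription factor that insulin holds back (16.1 ± 2.34 against 9.64 ± 0.683). Over the 42 measured insulin signalling genes 7 were higher and 10 lower (median -0.06), which turned to 8 and 6 under median-of-ratios scaling. Gnb4, a G protein beta subunit, was at 21.3, 20.3 and 20.1 FPKM in EAT and 3.01, 2.67 and 3.10 in IAT (-2.46 ± 0.08, limma adjusted p = 3.0e-06). Rgs7, which ends G protein signals, was higher in IAT (2.51 ± 0.394 against 8.66 ± 1.2). Around the lipid droplet, Plin5, a perilipin of oxidative cells, was higher in IAT (4.99 ± 0.336 against 8.99 ± 0.19) and the caveolar protein Cav1 lower (1461 ± 57 against 941 ± 4.04). Plin1 was at 765 ± 168 and 948 ± 47.4 FPKM (limma adjusted p = 0.19), and the lipase Lipe at 892 ± 82 and 929 ± 23.8 (adjusted p = 0.70).

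Outside the lists, the largest differences included genes with little signal in 1 depot. Fam174b was at 8.89 ± 0.786 FPKM in EAT and 0.649 ± 0.0624 in IAT. In the other direction Vat1l was at 0.199, 0.362 and 0.328 FPKM in EAT and 5.76, 6.76 and 6.66 in IAT, and Itm2a, a membrane protein, at 1.32 ± 0.307 and 19.7 ± 1.36, though Itm2a was more abundant in IAT SVCs (54.9 FPKM).

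No call rested on EAT adipocyte replicate 1. Without it, all 917 genes higher and all 2459 genes lower in IAT kept their direction and stayed called, and 3036 of the 7717 genes not called before were called as well, so that 6412 (57.8%) differed, 18.2% of all genes higher and 39.6% lower. After the trend of each library with gene length was removed, 877 of the 917 and 1585 of the 2459 kept their call in the same direction, where 16.1% of all genes were called higher and 16.3% lower (32.3% in all). Large differences moved little: that of Oxtr was -2.77 with and -2.85 without the library, that of Cyp2f2 3.60 and 3.56, that of Angptl4 0.77 and 0.76, and that of C6 -2.64 and -2.65. Among the called genes described here, those that moved most were Cish (2.15 and 1.84), Fosb (1.94 and 1.66), Ccl3 (-3.55 and -3.28) and Fzd4 (-0.92 and -1.17).

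**Figure D5:**
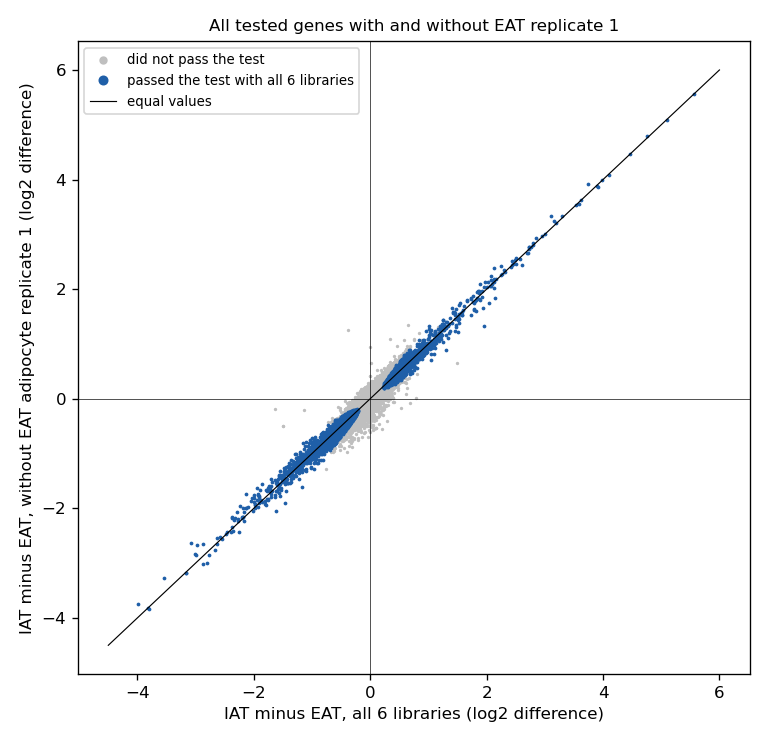
Difference between IAT and EAT adipocytes in log2(FPKM + 1) for all 11093 tested genes, with all 6 libraries on the horizontal axis and without EAT adipocyte replicate 1 on the vertical axis. The 3376 genes that passed the test lie close to the line of equal values and keep their sign, while genes that did not pass scatter around 0.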

How the data were processed

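Gene values in FPKM were deposited as 1 table per library, with confidence bounds. TopHat, Cufflinks and the build GRCm38 (mm10) are named in the submitters' processing notes, while tool versions, annotation and strandedness are not given in the sources used here. Of 24890 features, 9 with a failed estimate were left out, and 273 symbols at more than 1 locus were kept apart. The tables hold no read counts, so fragments were estimated from the bounds.

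Values were transformed to log2(FPKM + 1). Features with at least 1 FPKM in 3 of the 6 adipocyte libraries were fitted with limma 3.58.1 (eBayes with a trend) in R 4.3.3, and tables were made with Python 3.11.15. On simulated data of 11093 genes, the comparison of IAT with EAT adipocytes called 37.3%, 77.6% and 97.0% of changes of 0.5, 1 and 2 (log2), with 2 false calls. The simulated noise was independent between genes and alike in all libraries, without a library that stood apart as EAT adipocyte replicate 1 did. These shares and the false calls therefore need not hold for the real libraries. The depot difference in adipocytes was set against that in SVCs in a fit on all 12 libraries.

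Members and gene lists were chosen with earlier results of these data known. Named genes were up to 4 called members of each list in each direction (no overlap between groups, mean of at least 2 FPKM in the higher group), up to 3 abundant members that were not called, the largest differences outside the lists and 7 reference genes. The interferon, SOCS, antigen processing and immediate-early lists, and their members, were named after values were seen, as were a few other genes chosen to show a family. Results for some genes are not reported here. Promoter bases came from RefSeq (GRCm38.p6). Replicates 1, 2 and 3 of both groups were numbered alike, with no label that pairs them.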

Additional observations from a re-analysis of the deposited data

Results flagged for a closer look

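For 5 of the genes the naming rule chose, the difference between depots passed the test in adipocytes and in SVCs, ran in opposite directions and was at least 1 on the log2 scale in both. Smaller opposite differences, as in C3 or Cish, are not listed. The difference of the 2 depot differences was tested in a fit on all 12 libraries with limma, and passing that test was also part of the choice. Its adjusted p-values for these 5 genes therefore follow from the choice and are a description only. For C6 it was -4.12 ± 0.10 (adjusted p = 4.0e-11): the level was 26.8 ± 0.658 FPKM in EAT and 3.47 ± 0.00983 in IAT adipocytes, but 0.953 ± 0.111 and 4.48 ± 0.39 in EAT and IAT SVCs. Sfrp5 gave -3.90 ± 0.19 (adjusted p = 1.8e-08), with 0.364 ± 0.114 FPKM in EAT SVCs and 7.61 ± 1.84 in IAT SVCs. In the other direction Hcar2 gave 3.73 ± 0.14 (adjusted p = 1.4e-09), with 7.67 ± 0.325 and 1.87 ± 0.0256 FPKM in SVCs, and Kcnk2 3.31 ± 0.11 (adjusted p = 3.9e-10), with 3.22 ± 0.123 and 0.284 ± 0.0723. Cxcl3, a neutrophil chemokine measured through IAT only, gave 4.16 ± 0.28 (adjusted p = 4.4e-07), with 0.57 ± 0.122 and 8.14 ± 2.33 FPKM in adipocytes and 5.18 ± 0.426 and 1.03 ± 0.641 in SVCs. Over all 11093 genes, 3028 passed this test.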

How the results depend on the processing

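The count of 3376 genes that differed became 6776 with array weights, 172 against a 2-fold threshold, and 5616 with median-of-ratios scaling and without EAT adipocyte replicate 1. With 1 library left out it ranged from 1790 (without IAT adipocyte replicate 3) to 6412 (without EAT adipocyte replicate 1). It was also lower by over 1.5 times without EAT replicate 3 (2022), IAT replicate 1 (1848) and IAT replicate 2 (1935), and a fit with 1 library fewer has less power. Of the calls, 27.2% were higher in IAT, which became 51.7% under median-of-ratios scaling, 48.4% under quantile scaling and 49.7% with the gene length trend removed, an alternative chosen after seeing the data. The 3028 genes with different depot differences in adipocytes and SVCs ranged from 2374 to 4142 with 1 library left out. Of the 143 called genes named in the text, none reversed in the alternatives run: 102 did not pass the 2-fold threshold, 6 lost their call when rescaled to TPM, 5 with no filter on low values, 4 under quantile scaling, 1 under median-of-ratios scaling, 3 with the length trend removed, 0 without EAT adipocyte replicate 1 and 5 to 11 without another library. Most of these genes were chosen for large differences without overlap between the libraries, so that their stability is partly built in. Over all genes, 1310 of the 2459 lower calls and all 917 higher calls were kept under median-of-ratios scaling. It is not known whether replicate numbers pair the samples. Deviations of same-numbered libraries correlated at 0.42, -0.025 and 0.60, which does not settle it with 3 libraries per group. With the replicate number as a block, 3568 genes differed (2880 for the difference of depot differences), and no called gene of the text lost its call. Near 1 FPKM counting error alone limits what can be told apart.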
